A study of Mus musculus with 12 samples.

Results

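Collagen genes of the mouse cortex were measured in lupus-prone mice with and without the receptor Fn14. The genes were taken as the probes, other than control spots, whose gene name reads Col, a number, a and a number. This gave 44 genes of the 29608 named on the array and 70 of its 39429 probes. The array was a 60-base oligonucleotide array read in Cy3 and Cy5, 2 fluorescent dyes, with the labelled RNA of 1 mouse in each dye. Cortex was taken from 12 adult female mice of about 12 weeks, 4 in each of 3 groups. MRL/lpr mice carry the loss-of-function lpr mutation of the death receptor gene Fas on the MRL background and develop a lupus-like disease. Fn14ko mice (Fn14koMRL in the labels) lack Fn14, the TWEAK receptor encoded by Tnfrsf12a, in every tissue, and per the methods came from the same breeding as the MRL/lpr mice and carry lpr as well. MRL/+ mice (MRL/MpJ in the labels) have the MRL background without lpr and came from another breeder. The comparisons ask which genes differ with the lpr disease and which of them differ when Fn14 is missing.

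Collagens are trimeric proteins of the extracellular matrix. In brain they lie in the basement membrane around blood vessels, which endothelial cells and pericytes build from type IV chains, and in the meninges and the adventitia of larger vessels, where fibroblasts make the fibrillar types I and III and the beaded filaments of type VI. Cortical neurons and glia make few of them. In bulk cortex, fewer cells of a type and less RNA per cell cannot be told apart. A type IV molecule of the common vascular kind holds alpha1 and alpha2 chains, encoded by Col4a1 and Col4a2, and a type VI molecule holds chains from Col6a1, Col6a2 and another gene such as Col6a3.

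The probes that carry the main results are shown by 30 bases each, 5′ to 3′ in the sense of the transcript, with mm9 coordinates and strand from the array's annotation. The letters AATAAA, the poly(A) signal after which most transcripts end, are in capitals where they occur. For the second Col16a1 probe the first 30 bases are shown and for the others the last 30.
Col6a1 chr10:76171538-76171567 (-): ctatctctgctAATAAAggtttccattttt
Col4a2 chr8:11448870-11448899 (+): ggacagcaaaggaatctatggccaatgata
Col4a1 chr8:11199009-11199038 (-): ttcacagggttaccaacatcaggccactga
Col26a1 chr5:137217634-137217663 (-): atgttatttcaAATAAAggtgctctctcca
Col16a1 (A_55_P2056739) chr4:129776363-129776392 (+): actctactaggAATAAAtggccaaagctta
Col16a1 (A_55_P2124751) chr4:129776460-129776489 (+): ttttttaacAATAAAgaaaactatttgtaa

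AATAAA occurred in 11 of the 70 collagen probes (15.7%) and in 12.6% of all 39429 probes. The probes of Col6a1 and Col26a1 held it, as did both Col16a1 probes, which start 127 bases apart and each have an AATAAA of their own. Those of Col4a1 and Col4a2 did not hold it.

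Col6a1 was the collagen gene past the threshold in every comparison, so the 250 bases before its annotated start are also shown (RefSeq, GRCm38.p6, minus strand, written 5′ to 3′). TGACTCA, the sequence bound by AP-1 factors such as Fos and Jun, is in capitals.
Col6a1 chr10:76726045-76726294: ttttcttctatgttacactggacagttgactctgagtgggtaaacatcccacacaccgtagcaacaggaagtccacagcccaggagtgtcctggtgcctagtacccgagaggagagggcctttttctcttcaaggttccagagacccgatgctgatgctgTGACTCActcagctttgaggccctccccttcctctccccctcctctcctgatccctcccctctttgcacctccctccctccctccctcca

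TGACTCA (on the other strand TGAGTCA) was searched on both strands in the 300-base windows around gene starts. It occurred once in the Col6a1 window, beginning 90 bases before the start, and in 5.2% of all 32851 windows. Of the 35 collagen genes with a window, Col6a1 was the 1 that held it. GGGCGG or CCGCCC, the GC box, occurred in 35.7% of all windows, in the windows of 22 of the 35 collagen genes, among them Col4a1, Col4a2 and Col6a2, and not in that of Col6a1. Both strands were searched, and these letters do not overlap TGACTCA. In the 100 bases just before the Col6a1 start 81 were C or T.

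Col4a1 and Col4a2 are transcribed away from each other on chromosome 8, and their annotated transcripts share 22 bases at the starts. These are shown from the Col4a2 start to the Col4a1 start (GRCm38.p6, plus strand), because both genes were among those that rose.
Col4a2 and Col4a1 chr8:11312805-11312826: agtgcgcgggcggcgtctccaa

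A signal below is a fluorescence corrected for local background and divided by the median of its channel, that is, of 1 dye on 1 array. Spots marked by the scanner software, or under 2 times their local background in any of the 12 mice, were left out. After this, the 17302 genes that passed were compared with limma, a linear model with moderated variances. Of the 44 collagen genes, 29 passed, with 37 probes. The number of arrays limits the precision: the median SE of a log2 fold change was 0.252. Values are given for replicates 1 to 4 in order. Beside a fold, the first number in parentheses is the log2 fold change, and a comparison that gave a value gave a log2 fold change. The p-values are from limma, adjusted by Benjamini-Hochberg over all 17302 genes, unless an exact test is named. Tnfrsf12a itself, the deleted gene, had signals of 0.694 ± 0.0786 in the Fn14ko mice, 1.68 ± 0.246 in the MRL/lpr mice and 1.11 ± 0.152 in the MRL/+ mice (mean ± SD, n = 4), so the Fn14ko mice had the lowest level and still a signal.

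Both arrays of a group lay on 1 slide, scanned on its own, and the effects of group and of slide cannot be told apart. The Cy5 channels of the MRL/+ slide, replicates 2 and 4, stood apart from the other 10. Their negative control spots were 6.06-fold and 6.30-fold brighter than their surroundings, and in the other channels 1.10-fold to 2.62-fold. In them 55.6% and 64.8% of spots were below the median negative control. A dim gene in these 2 mice can have a raised value, and a brighter one can have a lower value. Col1a2 had 0.861 and 0.686 in them and 1.40 and 1.00 in the MRL/+ Cy3 mice, while Col4a2 was not lower in them. Each call of a collagen gene against MRL/+, and of the other genes described, is therefore also given without them. P-values here measure the spread between these mice.

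Detection of the collagens followed the same split. A gene counts as detected in a mouse where a probe was well above background by the scanner software. MRL/lpr mice had 29 to 39 of the 44 genes detected, Fn14ko mice 28 to 38, the MRL/+ Cy3 mice 33 and 32, and the MRL/+ Cy5 mice 6 and 1. In both Cy3 mice of a group, 37 genes were detected for MRL/lpr, 34 for Fn14ko and 32 for MRL/+. Of the 7 genes called in a comparison below, the probes were well above background in both MRL/+ Cy3 mice and in no MRL/+ Cy5 mouse, apart from Col4a2 in 1 of them. Within each array the Cy5 mouse had fewer genes detected than the Cy3 mouse.

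**Figure D1:**
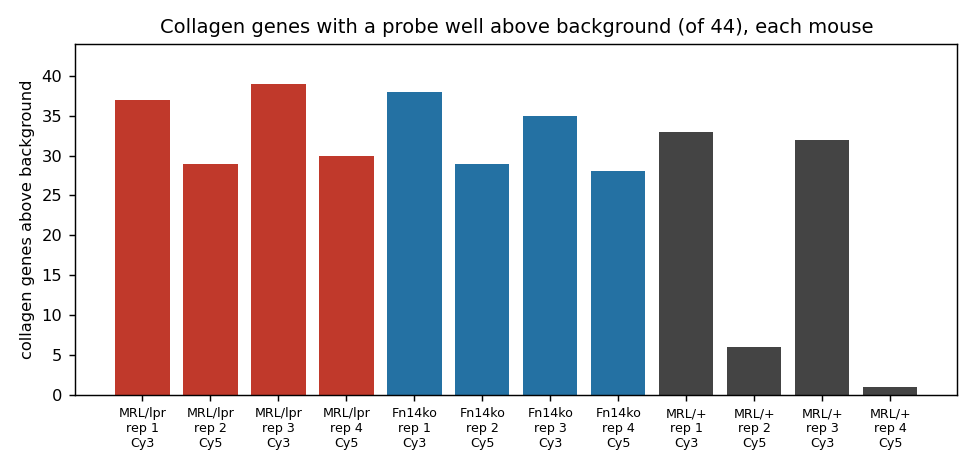
Number of the 44 collagen genes with a probe well above background in each mouse (bars), by group, replicate and dye. The Cy5 mice of MRL/+ had 6 and 1, and the other mice between 28 and 39.

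In MRL/lpr vs. MRL/+, 7 of the 29 collagen genes passed the threshold of adjusted p under 0.05 (24.1%, against 14.4% of all genes). Col6a1, Col26a1, Col4a2, Col4a1 and Col16a1 rose (17.2%, against 6.03% of all genes), by 1.73-fold to 5.20-fold. Col25a1 and Col6a3 fell (6.9%, against 8.37%). The split of 5 higher and 2 lower depended on the scaling: it was 2 and 3 when channels were divided by their 75th percentile, where Col4a1, Col16a1 and Col26a1 no longer passed, and 6 and 0 with the processed signals of the scanner software. In MRL/lpr vs. Fn14ko, where no MRL/+ mouse is involved, 3 of 29 passed (10.3%, against 4.57%), and all 3, Col26a1, Col4a2 and Col6a1, were higher in MRL/lpr (of all genes 2.58% were called higher and 1.99% lower). In Fn14ko vs. MRL/+ 1 passed (3.45%, against 0.954%), and this was Col6a1, which rose (of all genes 0.237% were called higher and 0.717% lower). The comparisons share mice, so their counts are not independent.

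**Figure D2:**
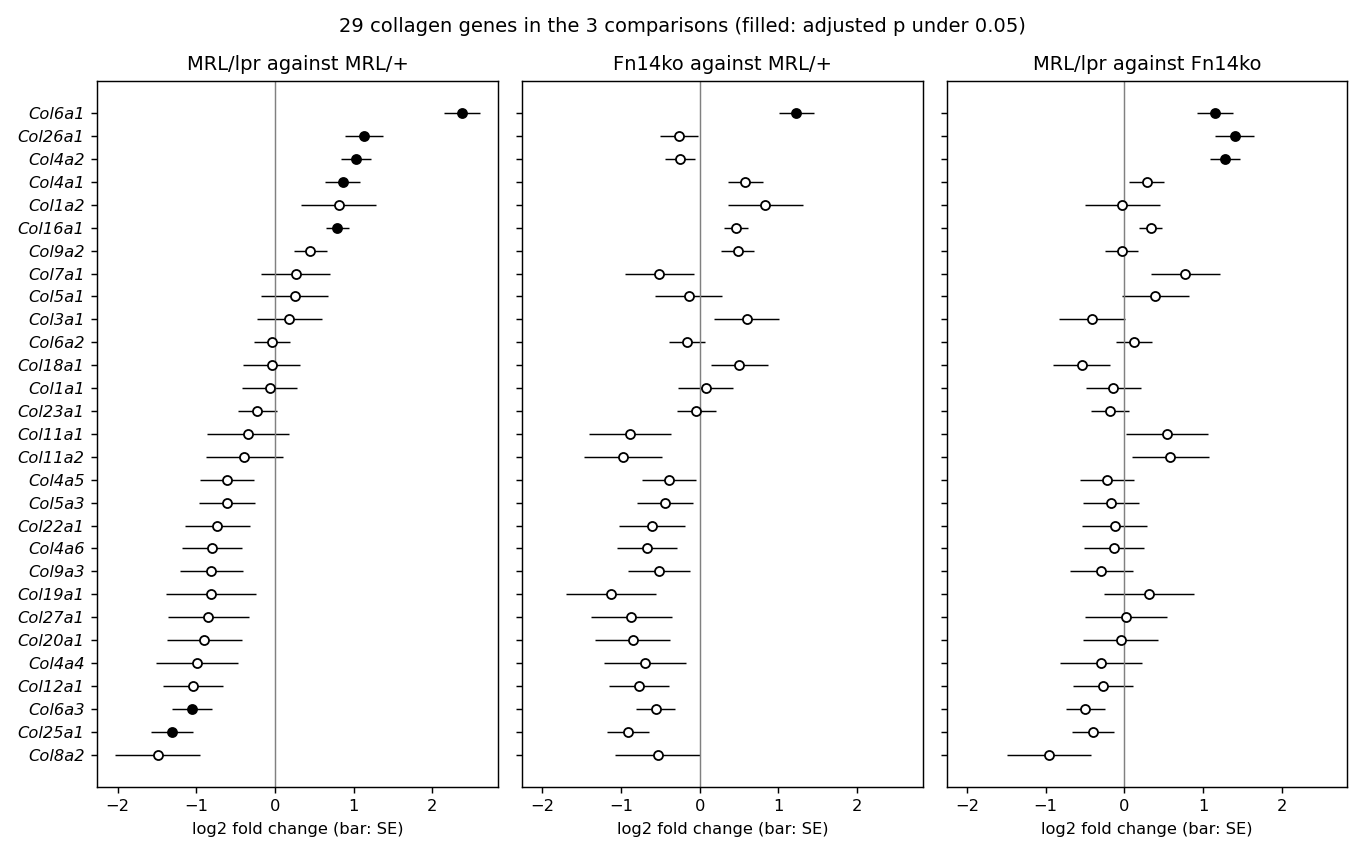
Log2 fold change (x axis; bars are SE) of the 29 quantified collagen genes (y axis) in the 3 comparisons, sorted by MRL/lpr vs. MRL/+, filled where the adjusted p was under 0.05. Col6a1 is filled in all 3 panels, and Col26a1 and Col4a2 in both panels with MRL/lpr.

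The family median did not rise with those genes. The median log2 fold change of the 29 genes was -0.35 in MRL/lpr vs. MRL/+, -0.44 in Fn14ko vs. MRL/+ and -0.04 in MRL/lpr vs. Fn14ko, and over all genes -0.10, -0.10 and -0.07. Without the Cy5 mice of MRL/+ the first 2 collagen medians became 0.07 and -0.01, and with loess and Aquantile scaling they were 0.13 and 0.17, so the sign of the family median against MRL/+ was not stable. Without the Cy5 mice of MRL/+, no collagen gene was called lower and 4 were called higher in MRL/lpr vs. MRL/+. Of all 17302 genes 483 were called lower and 388 higher there. In Fn14ko vs. MRL/+ none of the 29 was called by limma without these mice, and 2 had an unadjusted p under 0.05. Of all genes 6 were called there, and 1337 had an unadjusted p under 0.05.

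Among the type IV chains of the vascular basement membrane, Col4a2 had signals of 2.64, 2.90, 3.02 and 2.53 in the MRL/lpr mice, 1.10, 1.30, 1.33 and 0.904 in the Fn14ko mice and 1.23, 1.46, 1.33 and 1.42 in the MRL/+ mice. All MRL/lpr mice were above all others, and Fn14ko and MRL/+ mice overlapped. Col4a2 was 2.04-fold higher in MRL/lpr than in MRL/+ (1.03, SE 0.19, adjusted p = 0.00469). It was 2.42-fold higher than in Fn14ko (1.27, SE 0.19, adjusted p = 0.00249), and Fn14ko vs. MRL/+ gave -0.24, SE 0.19, adjusted p = 0.405. Without the Cy5 mice of MRL/+ the first of these was 1.17, adjusted p = 0.0253.

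Col4a1 had signals of 1.80, 1.70, 1.87 and 1.41 in the MRL/lpr mice, 1.24, 1.73, 1.71 and 1.01 in the Fn14ko mice and 0.934, 0.951, 0.910 and 0.921 in the MRL/+ mice, averaged over 9 spots of 1 probe. The MRL/+ mice lay close together and below every other mouse, and MRL/lpr and Fn14ko overlapped. It was 1.82-fold higher in MRL/lpr than in MRL/+ (0.86, SE 0.22, adjusted p = 0.0241), while Fn14ko vs. MRL/+ gave 0.58, SE 0.22, adjusted p = 0.178 and MRL/lpr vs. Fn14ko 0.28, SE 0.22, adjusted p = 0.564. The call was lost without the Cy5 mice of MRL/+ (0.97, adjusted p = 0.116), without MRL/+ replicate 4 alone (0.89, adjusted p = 0.134) or replicate 3 alone (0.82, adjusted p = 0.0501), and with scaling to the 75th percentile (0.63, adjusted p = 0.0858). It held in the Cy3 mice alone (0.99, adjusted p = 0.0105).

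The signal ratio of the partner genes Col4a1 and Col4a2 differed in Fn14ko. The log2 ratio of the Col4a1 to the Col4a2 signal averaged -0.71 ± 0.12 for MRL/lpr mice, 0.28 ± 0.13 for Fn14ko mice and -0.55 ± 0.11 for MRL/+ mice (mean ± SD, n = 4), where only differences between groups can be read, since the 2 probes have no common scale. All 4 Fn14ko mice were above the other 8. Fn14ko exceeded MRL/+ by 0.82 and MRL/lpr by 0.99, and MRL/lpr vs. MRL/+ differed by -0.17, with overlap. In the Cy3 mice alone the Fn14ko differences were 0.74 from MRL/+ and 0.89 from MRL/lpr. The ratio was chosen after the values had been seen, so it is given as a description.

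**Figure D3:**
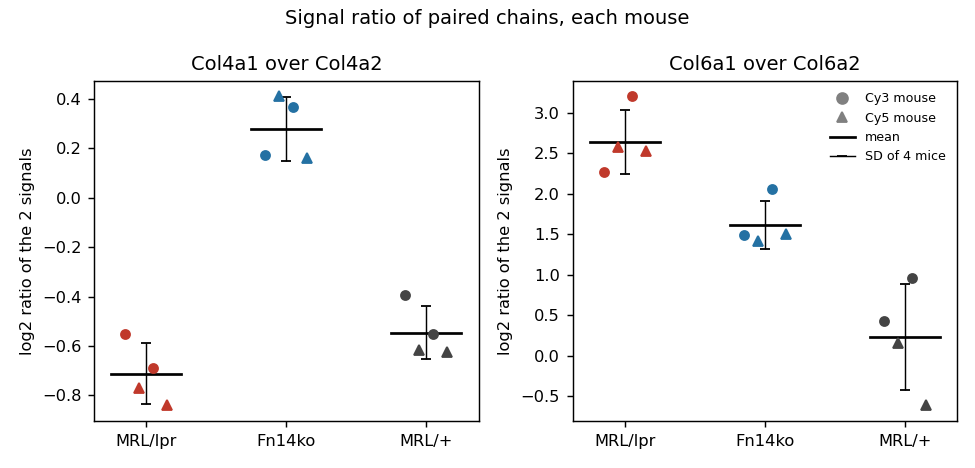
Log2 ratio of Col4a1 to Col4a2 (left) and of Col6a1 to Col6a2 (right) in each mouse (circles Cy3, triangles Cy5), with the mean (line) and SD (bar) of 4 mice; the height on the y axis has no meaning across the panels. In the left panel Fn14ko stands above the other groups, and in the right panel the 3 groups do not overlap.

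The minor type IV chains Col4a4, Col4a5 and Col4a6, which are typical of kidney and other specialised membranes, did not pass in any comparison, and their log2 fold changes in MRL/lpr vs. MRL/+ were -0.99, -0.61 and -0.80. In each of them the highest mouse of all was an MRL/+ Cy5 mouse, replicate 2. Col4a3 was too dim to be fitted: its foreground was 264, 212, 81.1 and 60.4 in the MRL/lpr mice, above background in 3 of them, and the mice of the first MRL/lpr array were the bright ones.

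Of 16 other basement membrane genes, all measured, Agrn, a heparan sulfate proteoglycan, rose (0.70, adjusted p = 0.0423; without the Cy5 mice of MRL/+ 0.75, adjusted p = 0.0996) and Lamb1, a laminin chain, fell in MRL/lpr vs. MRL/+, and none passed by limma in Fn14ko vs. MRL/+, where 1 had an unadjusted p under 0.05. Lamb1 had signals of 1.18, 1.47, 1.66 and 1.72 in the MRL/lpr mice, 2.39, 3.81, 2.60 and 4.64 in the Fn14ko mice and 2.42, 2.82, 3.47 and 4.74 in the MRL/+ mice. All MRL/lpr mice were below all others, with log2 fold changes of -1.12, SE 0.24, adjusted p = 0.00945 against MRL/+ and -1.12, SE 0.24, adjusted p = 0.0165 against Fn14ko. Without the Cy5 mice of MRL/+ the former was -1.19, adjusted p = 0.0377. These are 6.25% of the 16 genes each way, against 6.03% and 8.37% of all genes. The median of the 16 genes was -0.08 in MRL/lpr vs. MRL/+.

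Summed levels of endothelial and pericyte markers were higher in every MRL/lpr and Fn14ko mouse than in any MRL/+ mouse, as were the signals of Col4a1 and Col6a1, while those of Col4a2 and Col26a1 were not higher in Fn14ko. The summed signal of 12 endothelial markers was 40.6 to 42.2 for the MRL/lpr mice, 34.7 to 48.9 for the Fn14ko mice and 23.5 to 27.8 for the MRL/+ mice. Of the 12, 5 passed upward in MRL/lpr vs. MRL/+ (41.7%, against 6.03% of all genes) and 3 in Fn14ko vs. MRL/+ (25%, against 0.237%). None passed by limma in MRL/lpr vs. Fn14ko, where 1 had an unadjusted p under 0.05 (3216 of all 17302 genes did). The sum of 8 pericyte markers was 19.4 to 19.9, 15.6 to 30.1 and 10.2 to 13.3 in the same order. In MRL/lpr vs. MRL/+ 2 of them were called higher and 1 lower (25% and 12.5%, against 6.03% and 8.37% of all genes). None was called by limma in Fn14ko vs. MRL/+, where 4 had an unadjusted p under 0.05 (of all 17302 genes 3790 did). Single markers did not all go this way: Cspg4 of pericytes was lower in MRL/lpr than in MRL/+ (-0.59, adjusted p = 0.0368; without the Cy5 mice of MRL/+ -0.43, adjusted p = 0.271), and Cdh5 of endothelium had -0.89 and -1.16 in MRL/lpr and Fn14ko vs. MRL/+, neither past the threshold. Without the Cy5 mice of MRL/+ 4 endothelial and 0 pericyte markers were called in MRL/lpr vs. MRL/+ (5 and 2 with an unadjusted p under 0.05), and 0 of either by limma in Fn14ko vs. MRL/+ (5 and 2). Of all 17302 genes 871 and 6 were called in these comparisons, and 3342 and 1337 had an unadjusted p under 0.05. All 12 endothelial markers were above background in the Cy3 mice of each group, and the part of these shifts in the collagen results was not tested.

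Among the type VI chains, which form beaded filaments next to basement membranes and in the meninges, Col6a1 had signals of 3.01, 3.33, 4.47 and 2.70 in the MRL/lpr mice, 1.56, 1.23, 1.96 and 1.33 in the Fn14ko mice and 0.733, 0.706, 0.755 and 0.424 in the MRL/+ mice. The 3 groups did not overlap in any pair, with MRL/lpr highest, Fn14ko between and MRL/+ lowest. It was 5.20-fold higher in MRL/lpr than in MRL/+ (2.38, SE 0.22, adjusted p = 0.000170) and 2.22-fold higher than in Fn14ko (1.15, SE 0.22, adjusted p = 0.0110). Fn14ko exceeded MRL/+ 2.34-fold (1.23, SE 0.22, adjusted p = 0.0287), a call that was lost without Fn14ko replicate 2 (adjusted p = 0.1), Fn14ko replicate 3 (0.0825) or MRL/+ replicate 4 (0.220) and without both Cy5 mice of MRL/+ (1.19, adjusted p = 0.177), at log2 fold changes of 1.09 to 1.24. Without those 2 mice MRL/lpr vs. MRL/+ gave 2.34, adjusted p = 0.00143.

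Col6a2, whose product joins that of Col6a1 in the same molecule, had signals of 0.624, 0.557, 0.485 and 0.466 in the MRL/lpr mice, 0.553, 0.462, 0.472 and 0.468 in the Fn14ko mice and 0.546, 0.633, 0.387 and 0.650 in the MRL/+ mice. The groups overlapped, with log2 fold changes of -0.04 (SE 0.23), -0.16 and 0.12 in the 3 comparisons. The log2 ratio of Col6a1 to Col6a2 differed between all pairs of groups, by 2.41 in MRL/lpr vs. MRL/+, 1.38 in Fn14ko vs. MRL/+ and 1.03 in MRL/lpr vs. Fn14ko, and restates the Col6a1 values above, since Col6a2 overlapped in every comparison. It too was chosen after the values had been seen. In the Cy3 mice the differences were 2.04, 1.08 and 0.96. The genes lie on chromosome 10 on the same strand, with 85161 bases between them in GRCm38.p6.

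Col6a3, the third chain, had signals of 0.243, 0.307, 0.247 and 0.304 in the MRL/lpr mice, 0.344, 0.427, 0.374 and 0.405 in the Fn14ko mice and 0.457, 0.754, 0.363 and 0.836 in the MRL/+ mice. All MRL/lpr mice were below all others, and the MRL/+ Cy5 mice were the highest. Col6a3 fell in MRL/lpr vs. MRL/+ (-1.05, SE 0.25, adjusted p = 0.0163), but not without the Cy5 mice of MRL/+ (-0.70, adjusted p = 0.161) or without MRL/+ replicate 4 alone (-0.88, adjusted p = 0.107). MRL/lpr vs. Fn14ko gave -0.50, SE 0.25, adjusted p = 0.314, with no overlap of the mice (two-sided exact permutation p = 0.0286, the smallest possible; 20.3% of all genes did not overlap in this comparison).

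Col6a6, a later-found chain of the type, was not in the fit because its spots were dim. One probe, at chr9:105676597-105676655 of mm9, had foregrounds of 631, 602, 300 and 201 in the MRL/lpr mice, 35.7, 62.8, 38.1 and 61.7 in Fn14ko and 44.8, 134, 35.2 and 116 in MRL/+. It was well above background in all MRL/lpr mice and in no other mouse, at least 3.56-fold higher than Fn14ko and at least 2.40-fold higher than MRL/+. The bound sets the MRL/lpr mean against the lowest signal still above background in each dim channel, or the probe's own where that was higher, after loess and Aquantile scaling, and no test was run on it. The spot was marked as uneven in MRL/lpr replicate 2. The second probe of the gene was above background in MRL/lpr replicates 1 and 2, which share an array (324 and 197), and in no other mouse. The Col6a4 and Col6a5 probes were above background in no MRL/lpr or MRL/+ mouse and in 1 Fn14ko mouse each.

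**Figure D4:**
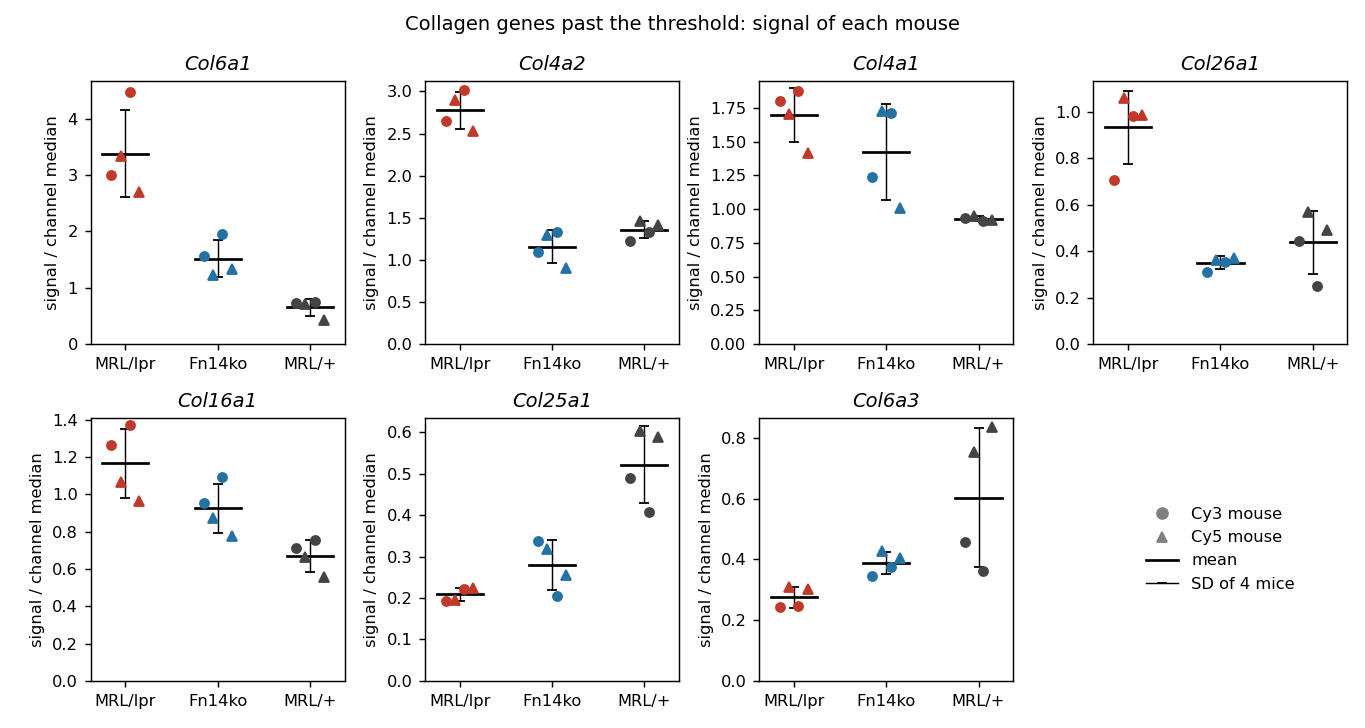
Signal (channel median = 1) of the 7 collagen genes past the threshold in any comparison, in each mouse (circles Cy3, triangles Cy5), with the mean (line) and SD (bar) of 4 mice; each y axis starts at 0. In Col6a1 the groups do not overlap, in Col4a2 and Col26a1 MRL/lpr stands alone, and in Col6a3 the MRL/+ Cy5 mice lie far above its Cy3 mice.

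Col26a1 and Col16a1 also rose in MRL/lpr. Col26a1, which encodes a short secreted collagen described in developing gonads, had signals of 0.705, 1.06, 0.982 and 0.986 in the MRL/lpr mice, 0.311, 0.363, 0.356 and 0.372 in the Fn14ko mice and 0.445, 0.568, 0.251 and 0.491 in the MRL/+ mice. All MRL/lpr mice were above all others. It was 2.20-fold higher than in MRL/+ (1.14, SE 0.24, adjusted p = 0.0101) and 2.64-fold higher than in Fn14ko (1.40, SE 0.24, adjusted p = 0.00576). Both of its probes, which overlap, passed in each of these comparisons, with log2 fold changes of 0.90 and 1.34 against MRL/+ and 1.34 and 1.45 against Fn14ko. Without the Cy5 mice of MRL/+ MRL/lpr vs. MRL/+ gave 1.36, adjusted p = 0.0256, and with scaling to the 75th percentile 0.90, adjusted p = 0.0642. In the Cy3 mice alone MRL/lpr vs. Fn14ko gave 1.32, adjusted p = 0.0596.

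Col16a1, a fibril-associated collagen found beside microfibrils and basement membranes, had signals of 1.26, 1.07, 1.37 and 0.965 in the MRL/lpr mice, 0.955, 0.875, 1.09 and 0.777 in the Fn14ko mice and 0.715, 0.662, 0.753 and 0.555 in the MRL/+ mice. By the mean of its probes, MRL/lpr and Fn14ko mice were all above the MRL/+ mice and overlapped each other. It rose in MRL/lpr vs. MRL/+ (0.79, SE 0.15, adjusted p = 0.00515; without the Cy5 mice of MRL/+ 0.83, adjusted p = 0.0308; with scaling to the 75th percentile 0.56, adjusted p = 0.0617), and Fn14ko vs. MRL/+ gave 0.46, SE 0.15, adjusted p = 0.128. Its 2 probes, whose sequences are shown above, differed. A_55_P2056739, the one upstream, gave 1.12, SE 0.24, adjusted p = 0.00898, and A_55_P2124751, which holds the later AATAAA, gave 0.41, SE 0.30, adjusted p = 0.325. In Fn14ko vs. MRL/+ they had opposite signs (0.86 and -0.14) with the MRL/+ Cy5 mice included. At A_55_P2056739 Fn14ko overlapped MRL/+ (1.08 in Fn14ko replicate 2, 1.18 in MRL/+ replicate 3). At A_55_P2124751 both MRL/lpr and Fn14ko overlapped MRL/+. The MRL/+ Cy5 mice had 0.612 and 0.418 at A_55_P2056739, below the MRL/+ Cy3 mice. At A_55_P2124751 they had 0.713 and 0.692, above the MRL/+ Cy3 mice. The MRL/lpr Cy3 mice had 1.90 and 2.06 at A_55_P2056739 and 0.631 and 0.678 at A_55_P2124751, above the MRL/+ Cy3 mice at both. The MRL/+ Cy3 mice had 0.926 and 1.18 at A_55_P2056739 and 0.504 and 0.329 at A_55_P2124751. The Fn14ko Cy3 mice had 1.27 and 1.80 at A_55_P2056739, above these. At A_55_P2124751 the Fn14ko Cy3 mice had 0.636 and 0.382, which overlapped the MRL/+ Cy3 mice and were not lower. The opposite signs were thus not seen in the Cy3 mice. The probes were not fitted without the MRL/+ Cy5 mice, and the difference between the probes was not tested.

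Col25a1, a transmembrane collagen that neurons make and whose shed part occurs in amyloid plaques, had signals of 0.194, 0.195, 0.223 and 0.224 in the MRL/lpr mice, 0.337, 0.320, 0.205 and 0.256 in the Fn14ko mice and 0.490, 0.602, 0.407 and 0.590 in the MRL/+ mice. By the mean of its probes, the MRL/+ mice were above all others in both dyes. It fell in MRL/lpr vs. MRL/+ (-1.31, SE 0.27, adjusted p = 0.00876), and without the Cy5 mice of MRL/+ the value was -1.13, adjusted p = 0.0859. Without MRL/+ replicate 4 alone it was -1.23, adjusted p = 0.0584. Fn14ko vs. MRL/+ gave -0.91, SE 0.27, adjusted p = 0.109. The probe A_52_P876623 gave -1.43, SE 0.23, adjusted p = 0.00206 in MRL/lpr vs. MRL/+ and the probe A_55_P2160750 gave -1.08, SE 0.40, adjusted p = 0.0790. At the latter the MRL/+ mice overlapped both other groups (0.209 in MRL/+ replicate 3, 0.213 in MRL/lpr replicate 4, 0.278 in Fn14ko replicate 1). The probes A_55_P2107711 and A_55_P2107715 were too dim for the fit. Both were above background in the Cy3 mice of MRL/+ and Fn14ko and in no MRL/lpr mouse. Over the negative control, the MRL/lpr Cy3 mice had 2.35 and 2.11 at the first and the MRL/+ Cy3 mice 2.07 and 1.93. At the second they had 1.80 and 2.26 against 2.82 and 3.10. No test was run on these. Of 6 cortical excitatory neuron markers 3 were called lower and 1 higher in MRL/lpr vs. MRL/+ (50% and 16.7%, against 8.37% and 6.03% of all genes). Without the Cy5 mice of MRL/+ 1 was called lower and none higher. Of all 17302 genes 483 were called lower and 388 higher in that fit. The sum of the 6 markers ran from 36.0 to 42.9 among MRL/lpr mice, from 44.5 to 64.9 among Fn14ko mice and from 52.4 to 78.4 among MRL/+ mice. Their part in the Col25a1 result was not tested.

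None of the 8 quantified fibrillar collagens, of 11 in the class, passed in any comparison, and none had an unadjusted p under 0.05 by limma.

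Col1a2, a chain of type I collagen made by fibroblasts, had signals of 2.14, 1.28, 1.91 and 1.49 in the MRL/lpr mice, 0.867, 2.10, 1.30 and 3.51 in the Fn14ko mice and 1.40, 0.861, 1.00 and 0.686 in the MRL/+ mice. Col1a1, its partner, had 0.879, 0.503, 0.851 and 0.717 in the MRL/lpr mice, 0.591, 0.893, 0.560 and 1.35 in the Fn14ko mice and 0.707, 0.807, 0.579 and 0.980 in the MRL/+ mice. Col3a1, of type III fibrils, had 0.469, 0.505, 0.465 and 0.470 in the MRL/lpr mice, 0.359, 0.868, 0.347 and 1.5 in the Fn14ko mice and 0.492, 0.622, 0.231 and 0.438 in the MRL/+ mice. These are strongly expressed by fibroblasts of the meninges. In Fn14ko the Cy5 mice, replicates 2 and 4, were the high ones for all 3 genes, and replicate 4 was the highest of the 12 mice.

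The log2 fold changes of Col1a2 were 0.81 (SE 0.48, adjusted p = 0.233) in MRL/lpr vs. MRL/+ and 0.83 in Fn14ko vs. MRL/+, those of Col3a1 were 0.18 and 0.60, and those of Col1a1 were -0.07 and 0.07. Col18a1, a heparan sulfate collagen of vessel and meningeal basement membranes and the source of endostatin, had signals of 0.374, 0.552, 0.730 and 0.525 in the MRL/lpr mice, 0.744, 1.16, 0.380 and 1.09 in the Fn14ko mice and 0.504, 0.742, 0.310 and 0.763 in the MRL/+ mice and overlapped between groups, with log2 fold changes of -0.04 and 0.50 against MRL/+. Replicates 2 and 4 were again the high mice of Fn14ko. Its 2 probes gave opposite signs in MRL/lpr vs. MRL/+ (0.20 and -0.30, neither past the threshold). With each of the 8 mice left out in turn, Fn14ko vs. MRL/+ for Col1a2 ran from 0.44, without Fn14ko replicate 4, to 1.19, without Fn14ko replicate 1, and did not pass. The log2 ratio of Col1a1 to Col1a2 differed by -0.88 in MRL/lpr vs. MRL/+ and by -0.34 in the Cy3 mice alone, and was also chosen after the values had been seen.

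The fibroblast markers of meninges and vessels were high in the same Fn14ko mice. The summed signal of the 15 quantified markers of 16 was 31.4, 32.4, 33.9 and 26.1 in the MRL/lpr mice, 21.9, 50.6, 23.6 and 68.6 in the Fn14ko mice and 23.4, 21.0, 19.8 and 24.9 in the MRL/+ mice. The Fn14ko mice spanned a wider range than either other group. All 16 markers were above background in both Cy3 mice of each group, and none of the 15 passed in any comparison, while by limma 2, 4 and 2 had an unadjusted p under 0.05 in MRL/lpr vs. MRL/+, Fn14ko vs. MRL/+ and MRL/lpr vs. Fn14ko. Replicates 2 and 4 are also the Cy5 mice, so dye and mouse cannot be told apart here. In MRL/lpr and MRL/+, each on a slide of its own, the sums of the Cy5 and the Cy3 mice overlapped. Whether dye had a part in the Fn14ko sums was not tested. Choroid plexus markers, of which 8 of 10 were quantified, varied among mice in every group, from 7.54 to 102 among MRL/lpr mice, 14.0 to 185 among Fn14ko mice and 18.1 to 268 among MRL/+ mice. Smooth muscle markers ran from 5.24 to 13.6, 4.22 to 12.7 and 6.30 to 9.98 in the same order. Fn14ko replicates 2 and 4 were also the highest Fn14ko mice for other marker sums. The 4 Fn14ko mice had 66.2, 124, 14.0 and 185 for choroid plexus and 4.22, 10.4, 4.29 and 12.7 for smooth muscle. For pericytes they had 15.6, 21.9, 19.9 and 30.1. The endothelial sum differed in this, with 38.2, 34.7, 41.3 and 48.9. The part of any of these marker sets in the collagen values was not tested.

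**Figure D5:**
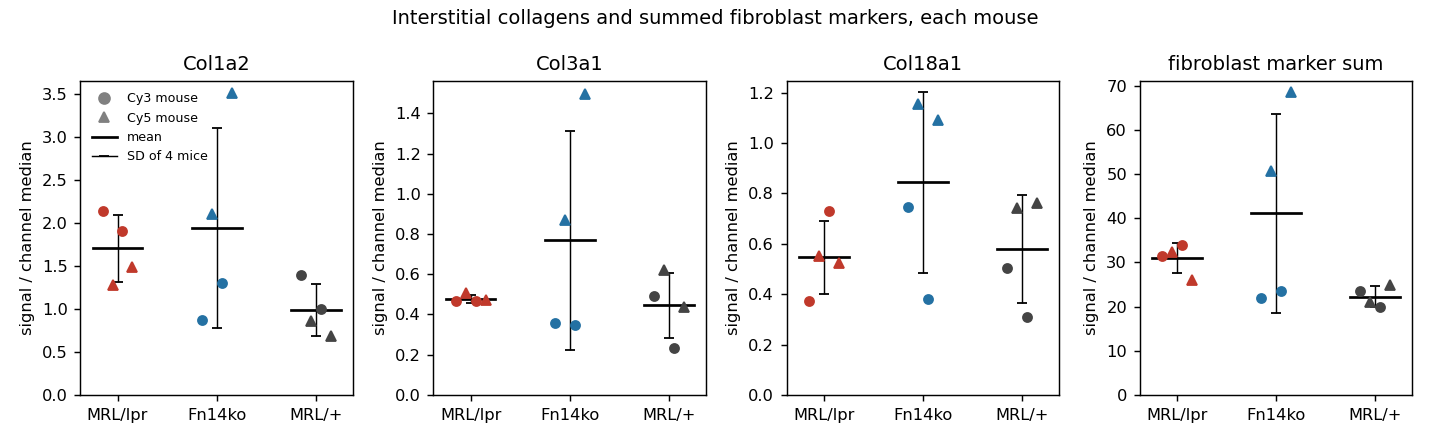
Signal (channel median = 1) of Col1a2, Col3a1 and Col18a1 and the summed signal of 15 fibroblast markers in each mouse (circles Cy3, triangles Cy5), with the mean (line) and SD (bar) of 4 mice; each y axis starts at 0. In Fn14ko the Cy5 mice lie above the Cy3 mice in each panel.

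Col12a1, Col9a2 and Col7a1 had groups that did not overlap without passing the adjusted threshold. In MRL/lpr vs. MRL/+ 8 of 29 genes did not overlap (27.6%, against 23.9% of all genes, 10.8% higher and 13% lower), the 7 called genes and Col12a1, a fibril-associated collagen of dense connective tissue, with 0.217, 0.202, 0.188 and 0.197 in the MRL/lpr mice, 0.297, 0.266, 0.154 and 0.290 in the Fn14ko mice and 0.410, 0.564, 0.224 and 0.570 in the MRL/+ mice (-1.05, SE 0.38, adjusted p = 0.0806). In Fn14ko vs. MRL/+ 5 of 29 did not overlap (17.2%, against 13.5%, 7.42% higher and 6.09% lower): Col4a1, Col6a1, Col16a1, Col25a1 and Col9a2, of the type IX collagen of cartilage, with 1.26, 1.21, 1.39 and 0.930 in the MRL/lpr mice, 1.03, 1.45, 1.14 and 1.27 in the Fn14ko mice and 0.970, 0.943, 0.866 and 0.712 in the MRL/+ mice (0.49, SE 0.21, adjusted p = 0.207). In MRL/lpr vs. Fn14ko 5 did not overlap (17.2%, against 20.3%, 8.91% higher and 11.3% lower): Col4a2, Col6a1, Col26a1, Col6a3 and Col7a1, the collagen of anchoring fibrils, with 0.473, 0.677, 0.600 and 0.516 in the MRL/lpr mice, 0.337, 0.357, 0.357 and 0.269 in the Fn14ko mice and 0.395, 0.739, 0.194 and 0.838 in the MRL/+ mice (0.78, SE 0.44, adjusted p = 0.379). These shares were near those of all genes. For each such gene the two-sided exact permutation p was 0.0286, the smallest possible. Overlap here was judged on the gene signal. At a single probe at least, Col16a1 and Col25a1 overlapped in both comparisons with MRL/+.

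The other 14 quantified genes overlapped between all groups and passed in no comparison. They were the fibrillar Col5a1, Col5a3, Col11a1, Col11a2 and Col27a1, the minor type IV chains above, the fibril-associated Col9a3, Col19a1, Col20a1 and Col22a1, the transmembrane Col23a1, and Col8a2, a network collagen of endothelium and cornea. Their log2 fold changes ran from -1.49 to 0.25 in MRL/lpr vs. MRL/+, -1.13 to -0.04 in Fn14ko vs. MRL/+ and -0.96 to 0.59 in MRL/lpr vs. Fn14ko. The 2 probes of Col23a1 gave 0.11 and -0.53 in MRL/lpr vs. MRL/+, and those of Col20a1 gave 0.01 and -0.10 in MRL/lpr vs. Fn14ko, none past the threshold. Col8a2 marked the lower end of both ranges with MRL/lpr, with 0.142, 0.289, 0.309 and 0.277 in the MRL/lpr mice, 0.582, 0.777, 0.158 and 0.701 in the Fn14ko mice and 0.478, 1.06, 0.260 and 1.67 in the MRL/+ mice.

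The remaining 15 genes were not in the fit, 14 of them because each of their spots was dim. Col2a1, the cartilage fibrillar collagen, was left out because its 1 spot was marked as uneven on the first MRL/lpr array. There its foreground was 39923 and 72639 in MRL/lpr replicates 1 and 2, and in the other mice it ran from 74.2 to 155. Col13a1, Col15a1 and Col28a1 were above background in no mouse. Col15a1, a vascular basement membrane collagen of many tissues, was below it at all 3 of its probes, so that only its lack of a measured level can be stated. Col24a1, a fibrillar collagen, had foregrounds of 312, 177, 446 and 160 in MRL/lpr, 73.3, 60.6, 177 and 59.5 in Fn14ko and 49.4, 109, 52.3 and 109 in MRL/+, was above background in 4, 2 and 0 mice, and was at least 1.64-fold higher in MRL/lpr than in MRL/+. Col2a1, Col9a1 and Col14a1 were above background in both Cy3 mice of every group. Col5a2, Col10a1, Col17a1 and Col8a1 were above it in at most 3 mice of any group.

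Of 23 quantified genes of collagen processing 2 rose and 2 fell in MRL/lpr vs. MRL/+ (8.7% each way, near the 6.03% and 8.37% of all genes), and none passed by limma in Fn14ko vs. MRL/+ or MRL/lpr vs. Fn14ko, where 8 and 5 had an unadjusted p under 0.05. The median was -0.09 in MRL/lpr vs. MRL/+. P3h1, a prolyl 3-hydroxylase of collagen, had signals of 6.29, 8.06, 5.79 and 7.83 in the MRL/lpr mice, 3.70, 5.63, 4.01 and 3.90 in the Fn14ko mice and 3.51, 3.49, 2.96 and 1.51 in the MRL/+ mice. It was higher in all MRL/lpr mice than in all others (1.35, SE 0.32, adjusted p = 0.0162 against MRL/+; 0.71, SE 0.32, adjusted p = 0.259 against Fn14ko). The first was 0.93, adjusted p = 0.0456, without the Cy5 mice of MRL/+. Adamts14, a protease that removes the amino propeptide, had 0.215, 0.317, 0.197 and 0.287 in the MRL/lpr mice, 0.452, 0.442, 0.341 and 0.418 in the Fn14ko mice and 0.554, 0.708, 0.429 and 0.747 in the MRL/+ mice and fell (-1.26, SE 0.23, adjusted p = 0.00411), but not without the Cy5 mice of MRL/+ (-1.14, adjusted p = 0.0533). The MRL/lpr mice had the lowest values here, and the MRL/+ Cy5 mice the highest. Bmp1, which removes the carboxyl propeptide, was the other that rose (0.70), and Plod1, a lysyl hydroxylase, the other that fell (-1.28). Of 10 quantified genes of collagen breakdown 1 fell in MRL/lpr vs. MRL/+, Mmp2, a gelatinase (-1.32; 10% of the list, near the 8.37% of all genes). Of 8 collagen receptors 1 fell, Itgb1, the common beta chain of collagen-binding integrins (-0.78; 12.5%). Without the Cy5 mice of MRL/+ Bmp1, Plod1, Mmp2 and Itgb1 did not pass (0.65, -0.93, -1.04 and -0.69, adjusted p = 0.0891, 0.206, 0.291 and 0.181). None of these 18 passed by limma in Fn14ko vs. MRL/+ or MRL/lpr vs. Fn14ko, where 4 and 3 had an unadjusted p under 0.05. Agrn, Bmp1, Plod1, Mmp2 and Itgb1 were named after their values were seen.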

How the data were processed

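RNA of the cortex of 12 mice was hybridised to 6 two-colour Agilent arrays, 1 mouse per channel. The deposited files hold spot intensity values, mean foreground and local background, written by Agilent Feature Extraction per the submitters' notes, on a linear scale and not normalised between arrays. Here normexp correction (offset 50) was applied on 44397 spots, control spots and 1952 marked spots were left out, as were spots under 2 times local background in any mouse, and 24255 remained. Each channel was divided by its median, spots of a gene were averaged, and log2 values of 17302 genes were fitted in limma 3.58.1 (R 4.3.3, data.table version 1.17.8) with group and dye terms, the array as a random block (correlation 0.316), a variance trend and Benjamini-Hochberg adjustment at 0.05. The methods of the study used a heteroscedastic t-test, which is an alternative here. The fit was tested on simulated data before use. Sequences came from the array annotation and RefSeq (GRCm38.p6), where all 44 symbols matched. Figures were drawn with matplotlib 3.10.9.

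Collagen genes were named with values per mouse where they passed in any comparison, where the mice of 2 groups did not overlap, or as 10 chains known in vessels and meninges, and of the other lists up to 3 genes of lowest adjusted p. Members and lists were chosen with earlier results of these data known. Alternatives covered background, scaling, filters, dye, block, probes, test and mice left out. The fits without the MRL/+ Cy5 mice (other gene lists included), in the Cy3 mice alone and with background from negative controls were chosen after seeing the data. Replicate numbers did not pair the mice: deviations of same-numbered mice, with the dye removed, correlated between -0.276 and 0.477, over 0.1 in 3 of 12 pairs.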

Additional observations from a re-analysis of the deposited data

Results flagged for a closer look

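In 45 sets of 4 mice (15 collagen genes in 3 groups) a gap test for 1 mouse far from the other 3 marked 3 mice, and chance alone marks about 1 in 20 such sets. Col3a1 was 0.505 in MRL/lpr replicate 2 and 0.465 to 0.470 in the other MRL/lpr mice. Col6a1 was 0.424 in MRL/+ replicate 4, a Cy5 mouse, and 0.706 to 0.755 in the others. Col6a2 was 0.553 in Fn14ko replicate 1 and 0.462 to 0.472 in the others. Among probes too dim for the fit, Col24a1 had a lowest foreground of 160 in MRL/lpr, against 49.4 to 109 in MRL/+, and Col6a6 had a lowest foreground of 201, against 35.2 to 134 in MRL/+.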

How the results depend on the processing

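Over the 15 named genes the alternatives gave 990 log2 fold changes. Of these 859 kept their sign and their side of the threshold, 26 gained the call, 32 lost it, and 73 had the other sign, none of them called in either fit. In MRL/lpr vs. MRL/+ the 7 calls became 11 with a replicate block (6 higher, 5 lower). They became 5 with scaling to the 75th percentile (2 higher, 3 lower) and 4 without both Cy5 mice of MRL/+. There was 1 call by the adjusted t-test of the methods and 0 with dim spots kept (18 with an unadjusted p under 0.05). With only spots well above background in all 12 samples, Col8a2 was the 1 collagen gene left. It was called lower and is not among the 7, none of which was tested there. In Fn14ko vs. MRL/+ the 1 call became 5 with plain background subtraction, 4 with the replicate block, without the array block, with background from negative controls and by the unadjusted t-test, 2 with processed signals or with loess and Aquantile, and 0 by the adjusted t-test (4 unadjusted), with dim spots kept (6 unadjusted), with only spots well above background (0 unadjusted) and without the Cy5 mice of MRL/+ (2 unadjusted). In MRL/lpr vs. Fn14ko the 3 calls became 5 by the unadjusted t-test, 4 with loess and Aquantile, 2 in the Cy3 mice, 1 by the adjusted one, 0 with dim spots kept (5 unadjusted) and 0 with only spots well above background (0 unadjusted). The replicate block changed no collagen call count there, and the numbers did not pair the mice. Calls over all genes moved as well. In MRL/lpr vs. MRL/+ the 2492 became 2968 with the 75th percentile, 721 by the adjusted t-test and 22 with dim spots kept. In Fn14ko vs. MRL/+ the 165 became 2837 with background subtraction, 2622 by the unadjusted t-test and 1531 with loess and Aquantile. In MRL/lpr vs. Fn14ko the 790 became 3818 by the unadjusted t-test, 3482 with loess and Aquantile and 469 in the Cy3 mice.

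The collagen median in MRL/lpr vs. MRL/+ was 0.76 with processed signals, 0.13 with loess and Aquantile, 0.0705 without the Cy5 mice of MRL/+, 0.13 in the Cy3 mice and -1.69 for the 1 gene left by the stricter filter. In Fn14ko vs. MRL/+ it was 0.23, 0.17 and -0.0056 under the first 3 of these and 0.0596 with dim spots kept, and in MRL/lpr vs. Fn14ko -0.93 for that 1 gene. Scaling to the 75th percentile moved the median of all genes to -0.34 and -0.35 against MRL/+, with collagen medians of -0.58 and -0.69. By a bound of 2 times local background, 32 collagen genes were detected in all 4 MRL/+ mice, in place of 1.

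With each mouse left out in turn the calls ran from 4 to 16 in MRL/lpr vs. MRL/+, from 0 to 5 in Fn14ko vs. MRL/+ and stood at 3 in all 8 fits of MRL/lpr vs. Fn14ko. The 16 (4 higher, 12 lower) and the 5 came without MRL/+ replicate 3, a Cy3 mouse, and the 4, all higher, without MRL/+ replicate 4. The 0 came without MRL/+ replicate 4 or Fn14ko replicate 2 or 3 (3, 3 and 7 with an unadjusted p under 0.05), and 2 genes were called without Fn14ko replicate 1. Over all genes the calls ran from 781 to 5551, 8 to 2164 and 385 to 868, against 2492, 165 and 790. The replicate block gave 6290, 2012 and 1968. The cause of these shifts was not tested. Signal over background limits the dim genes in the MRL/+ Cy5 mice.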
